A study of Nasonia vitripennis with 70 samples.

Results

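Gustatory receptors are the membrane receptors with which the taste neurons of insects detect sugars, bitter compounds and other contact chemicals. The members were chosen by symbol, as every gene of the count table named Gr followed by a number, and there were 46 of them among 14621 genes. Of these, 17 were detected, meaning at least 10 counts in 4 or more libraries: Gr2, Gr3, Gr5, Gr6, Gr7, Gr9, Gr14, Gr18, Gr24, Gr25, Gr32, Gr39, Gr45, Gr46, Gr47, Gr49 and Gr58. They were described in the heads and abdomens, sequenced as poly-A RNA, of the parasitoid wasp Nasonia vitripennis, taken 1 day after emergence. All wasps were of WGDL, a line founded by a whole genome duplication induced with colchicine, so the animals of lower ploidy belong to the same line and are not an unrelated wild type. Males of this wasp normally develop from unfertilised eggs and are haploid, whereas females are diploid. In WGDL there were triploid (3N) beside diploid (2N) females and diploid (2N) beside haploid (1N) males. The female groups, each with heads and with abdomens, were F14 triploid (4 libraries per tissue), F14 diploid (4), F2 triploid (5) and F2 diploid (4). The male groups were F15 diploid (4), F15 haploid (4), F5 diploid (5) and F5 haploid (5).

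Gustatory receptors belong to the same insect chemoreceptor superfamily as the odorant receptors. Odorant receptors serve the smell neurons of the antennae and need a shared co-receptor, whereas gustatory receptors serve contact neurons on the mouthparts, legs and antennae, and in other insects also cells of the gut and the reproductive tract. In the honeybee, Gr1 and Gr2 encode subunits of a sugar receptor and Gr3 a fructose receptor; the sources used here do not say whether the Nasonia genes of the same name are their orthologues, nor what the other members bind. The labels give the tissue as head and do not state whether antennae and mouthparts were kept. Because each library is a whole body part, fewer cells of a type and less RNA per cell cannot be told apart in any value below.

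The 70 libraries held between 12163580 and 25061605 expected counts each. Library C46, labelled as an F5 diploid male abdomen, was left out, which left 69 libraries and 4 abdomens in that group: its level of Lop1, an opsin of the eye, was 3337 TPM (a transcript level scaled to gene length and library size), against at most 0.28 TPM in the other 4 libraries of its group. The summed level of Lop1, HisCl1 and white, genes of eye and head, was 1018 to 14616 TPM in heads and at most 2.94 TPM in abdomens. Lop1 (934 to 14514 against 0 to 2.54 TPM) and HisCl1 (19.6 to 142 against 0 to 0.91 TPM) followed the labelled tissue without overlap. The level of white overlapped, at 0 to 9.25 TPM in heads and 0 to 0.5 TPM in abdomens, and it was 0 in all F14 triploid heads. The summed level of oskar, nanos and Hb, genes of the ovary and oocyte, was 0.78 to 9.19 TPM in male abdomens and 661 to 1912 TPM in female abdomens. Replicates are named by library code alone, and whether they came from separate cultures or animals is not stated, so p-values measure the spread between these libraries, which may be technical in part. No generation was sampled in both sexes, so a difference between the sexes cannot be told apart from one between generations, and a difference between generations cannot be told apart from one between the times of collection.

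The receptors were transcribed at low levels. All members together had 130 to 602 counts in a head library (median 298), 208 to 877 in a male abdomen (median 477) and 36 to 242 in a female abdomen (median 93.6). On the length-corrected scale that was 10.9 to 49.2 TPM in heads (median 26.6), 13.6 to 45.3 TPM in male abdomens (median 25.2) and 1.66 to 12.6 TPM in female abdomens (median 4.20). Male and female abdomens therefore did not overlap in the summed TPM, while heads overlapped with male abdomens over most of their range. In a head library 23 to 40 of the 46 members had at least 1 count, against 14 to 38 in male abdomens and 5 to 18 in female abdomens.

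Gr2 and Gr3 held the largest shares. Averaged over the 16 groups, Gr2 stood at 4.08 TPM, Gr3 at 2.99, Gr6 at 1.83, Gr49 at 1.20 and Gr7 at 0.931 TPM. Gr3 was the highest member of heads, at a mean of 5.15 TPM over head groups and 0.835 TPM over abdomen groups. Gr2 was the highest member of abdomens, at 2.57 TPM over head groups and 5.59 TPM over abdomen groups, and Gr6 was mainly a head transcript, at 3.38 TPM over head groups and 0.281 TPM over abdomen groups. Gr49 averaged 1.5 TPM over head groups and 0.902 TPM over abdomen groups, and Gr47, the next member of abdomens after Gr2, averaged 1.11 TPM there.

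**Figure D1:**
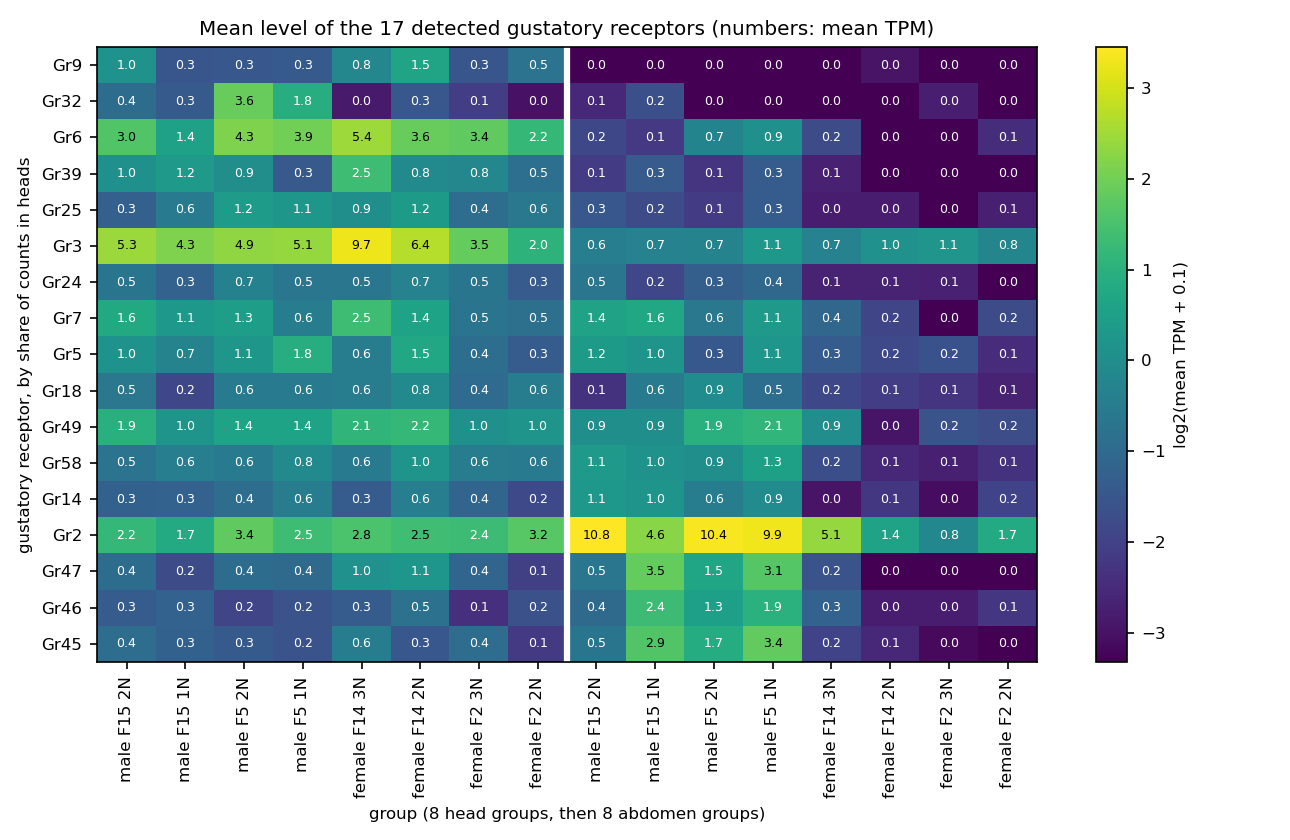
Mean level in TPM (colour scale) of the 17 detected gustatory receptors (rows) in the 16 groups (columns), with heads left of abdomens and males left of females. Gr3 and Gr6 are high across head groups and low in abdomens, Gr2 is highest in male abdomens, and Gr45, Gr46 and Gr47 appear mainly in male abdomens.

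The 17 detected members held 88.6% of the 20670 counts of all 46. The 29 undetected members had 6 to 186 counts each over 69 libraries, and 21 of the 46 never reached 10 counts in any library. The threshold cut through a gradual series: just inside lay Gr9, with at least 10 counts in 5 libraries, and Gr24 and Gr39, with 6 each, and just outside lay Gr33, with 3, and Gr20, Gr26 and Gr40, with 2 each. Among the undetected members 24 of 29 had more counts in heads than in abdomens, and among the detected ones 11 of 17 did. Gr10, an undetected member with 49 counts, had 34 of them in male abdomens, and its gene model lies inside that of Gr7, so their reads cannot be fully separated. Gr9 was a head transcript by its counts, with 153 of its 154 in heads.

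Many members stood beside one another in the gene order of the reference annotation, and the head share differed between these neighbourhoods. Of the 46 members, 39 stood in 7 runs of at least 2 neighbouring receptor genes, and 7 stood alone. The longest run held 19 members, from Gr40 to Gr18, with 5 of them detected. It had 2517 counts in heads and 499 in abdomens, so 83.5% of its counts came from heads, and its members ranged from 56.5% for Gr18 to 98% for Gr29. The run of Gr8, Gr9 and Gr15 had 98.1% of its counts in heads. The run of Gr47, Gr46 and Gr45 had 311 counts in heads and 1292 in abdomens, or 19.4% in heads. That low share came from males, where the run had 153 counts in heads and 1248 in abdomens (10.9% in heads), while in females it had 158 in heads and 44 in abdomens (78.2%). The run of 19 had 78.3% of its counts in heads in males and 92.3% in females. Shares in the other runs were 46% for Gr11 to Gr14, 53.5% for Gr48 to Gr53, 56.6% for Gr7 and Gr10 and 59.1% for Gr42 and Gr41. These shares are descriptions with no test. The authors' quantification can divide reads among similar sequences, and 2.02% of the members' values were not whole, against 18.2% of all values. Sharing of reads between neighbouring copies was not tested.

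**Figure D2:**
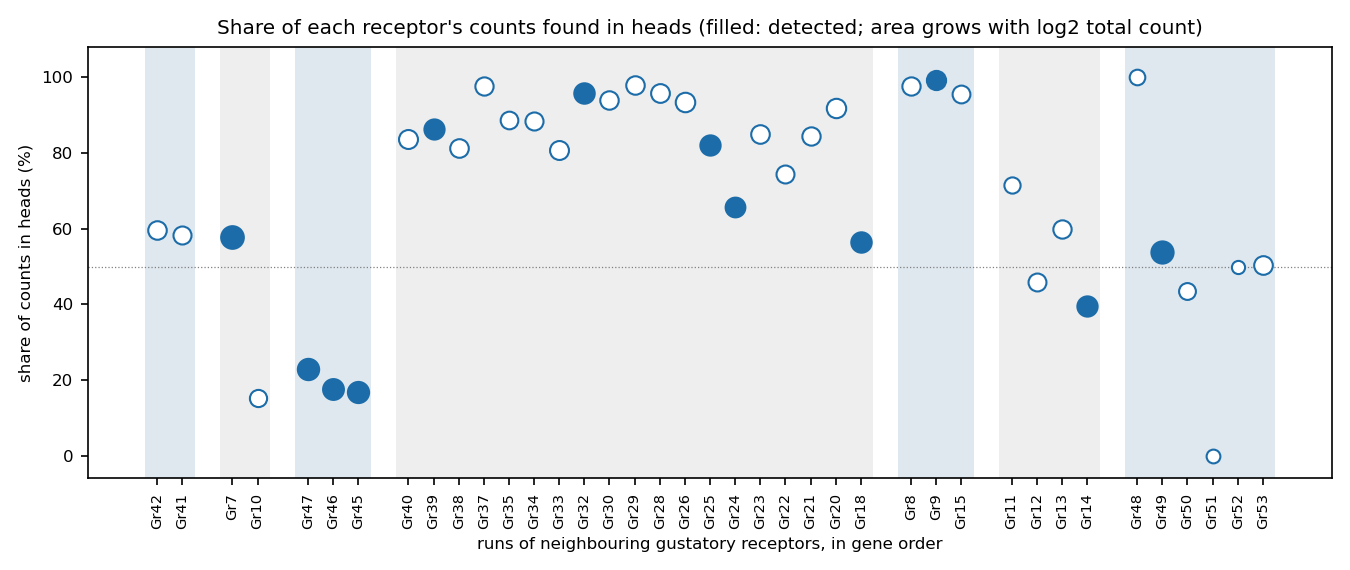
Share of counts that came from heads (vertical axis, percent) for the 39 members that stood in runs of neighbours, in gene order (horizontal axis, no coordinates). The 7 members that stood alone are not drawn. Filled points are detected members. The run of 19 lies mostly high, at 83.5% in all, and the run of Gr47, Gr46 and Gr45 lies low, at 19.4%, with both sexes pooled.

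Heads were first set against abdomens within each sex. In females, Gr6 had 15 to 45 counts in heads (median 26) and 0 to 6 in abdomens (median 0), with no overlap, and was higher in heads by 6.15 on the log2 scale (SE 0.39, edgeR adjusted p = 2.3e-13). Of the 6 members tested in females, 5 were higher in heads, with 47.5% of all genes tested higher there: Gr3 by 2.13 (SE 0.17), Gr5 by 1.48 (SE 0.42), Gr6, Gr7 by 3.30 (SE 0.39) and Gr49 by 2.59 (SE 0.40) on the log2 scale. Gr2 had 31 to 84 counts in female heads (median 48) and 8 to 185 in female abdomens (median 43), a log2 difference of 0.41 that did not pass the test. Gr5, Gr6 and Gr49 passed the filter on low counts almost entirely through the head libraries, so their calls carry that selection.

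In males, of the 16 members tested, 6 were higher in heads, with 37.9% of all genes tested higher there, and 6 were lower in heads, with 38.7% lower, so both shares of the members were close to those of all genes. The 6 higher in heads were Gr3 by 2.18, Gr6 by 2.63, Gr25 by 1.33, Gr32 by 4.44, Gr33 by 2.08 and Gr39 by 1.59 on the log2 scale. Gr2 had 15 to 161 counts in male heads (median 48) and 72 to 564 in male abdomens (median 260) and was lower in heads by 2.15 on the log2 scale (SE 0.20, edgeR adjusted p = 5.03e-11). The other 5 lower in heads were Gr14, which fell by 1.43, Gr45 by 2.86, Gr46 by 2.65, Gr47 by 2.72 and Gr58, which fell by 1.17. Gr25 and Gr32 passed the filter on low counts through head libraries alone and Gr45 through abdomens alone. Gr46 (11 abdomens, 1 head) and Gr47 (13 abdomens, 1 head) passed almost entirely through abdomens. Gr6, Gr14, Gr39 and Gr58 passed mostly through the tissue in which they were higher, so all these calls carry that selection. The odorant receptors were higher in heads in 125 of 149 tested in females and in 84 of 143 tested in males.

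The ploidy of females was the first comparison within heads. None of the 11 members tested was called in triploid against diploid female heads, at F14 or at F2, with 20.9% of all genes tested called at F14 and 18.6% at F2. Of the 11, 5 (Gr9, Gr25, Gr32, Gr39 and Gr58) passed the filter with fewer than 4 female heads over its level, Gr32 with none. Their comparison between female ploidies rested on low counts. The members' median log2 difference was -0.21 at F14, beside 0.10 for all genes, and 0.15 at F2, beside 0.03. The odorant receptors in the same libraries were lower in triploids in 123 of 162 tested at F14 (median -2.92) and in 113 of 162 at F2 (median -3.14). Their summed level was 101 to 280 TPM in triploid and 1067 to 1111 TPM in diploid heads at F14. Or1, their shared co-receptor, ranged from 0.97 to 314 TPM over all head libraries. The labels do not give the antennal content of a library, and its part in these differences was not tested.

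The highest head members give the values behind this. Gr3 had 105, 92, 67 and 59 counts in F14 triploid heads and 88, 79, 77 and 47 in F14 diploid heads, a log2 difference of 0.49 (SE 0.35, edgeR adjusted p = 0.35). At F2, Gr3 had 75, 68, 49, 48 and 34 counts in triploid heads and 46, 35, 32 and 20 in diploid heads, a log2 difference of 0.79 (SE 0.34, edgeR adjusted p = 0.104). Most libraries of both ploidies shared 1 range at F14, and at F2 the triploid libraries lay mostly above the diploid ones without passing the test. Gr6 had 43, 35, 24 and 15 counts in F14 triploid heads and 35, 32, 22 and 21 in F14 diploid heads, and 45, 36, 27, 26 and 19 in F2 triploid heads and 28, 24, 21 and 16 in F2 diploid heads. Gr2 had 41, 40, 37 and 33 counts in F14 triploid heads and 55, 48, 46 and 31 in F14 diploid heads, a log2 difference of 0.09 (SE 0.36) once scaled. At F2, Gr2 averaged 2.57 ± 0.57 CPM (counts scaled to library size; SD, n = 5) in triploid heads and 3.65 ± 0.37 CPM (SD, n = 4) in diploid heads, groups that did not overlap, with a log2 difference of -0.51 (SE 0.34, edgeR adjusted p = 0.302). Gr39, with 21, 18, 7 and 6 counts in F14 triploid heads and 8, 8, 4 and 4 in F14 diploid heads, had the lowest adjusted p of any member there (log2 difference 1.39, SE 0.60, edgeR adjusted p = 0.0973).

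In male heads, diploid against haploid, none of the 11 members was called either, and few genes of any kind were: 0.0255% of those tested at F15 and 0.424% at F5. The members' median log2 difference was 0.26 at F15 and 0.06 at F5, and the lowest adjusted p was 0.402 at F15 and 0.35 at F5. At an unadjusted p below 0.05, 0 members at F15 and 1 at F5 passed, as did 1 at F14 and 1 at F2 in females. DESeq2 called 0 members in each of these 4 comparisons. A member that misses the threshold at these counts is not shown to be equal between ploidies.

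In female heads of F14 against F2, ploidies pooled, 2 of the 11 members were higher, a share no greater than the 22.6% of all genes tested that were higher. Gr7 had 42, 41, 34 and 28 counts in F14 triploid and 59, 26, 25 and 23 in F14 diploid heads, against 15, 15, 14, 12 and 4 in F2 triploid and 18, 13, 12 and 3 in F2 diploid heads. Every F14 library lay above every F2 library: Gr7 averaged 1.96 ± 0.67 CPM at F14 (SD, n = 8) and 0.614 ± 0.25 CPM at F2 (SD, n = 9), a log2 difference of 1.65 (SE 0.41, edgeR adjusted p = 0.00174). Gr3 averaged 4.33 ± 1.0 CPM at F14 (SD, n = 8) and 2.38 ± 0.95 CPM at F2 (SD, n = 9), with overlap, and was higher by 0.94 on the log2 scale (SE 0.24, edgeR adjusted p = 0.00267). The odorant receptors were higher at F14 in 67 of 162 tested.

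In male heads, F15 was set against F5 with the ploidies pooled. Of the 11 members, 4 were lower at F15, with 16.7% of all genes tested lower, while 114 of 162 odorant receptors were higher (median 2.30). Gr32 had 7, 3, 3 and 0 counts in F15 diploid and 4, 4, 1 and 0 in F15 haploid heads, against 65, 50, 35, 26 and 11 in F5 diploid and 41, 24, 20, 7 and 5 in F5 haploid heads. It averaged 0.175 ± 0.15 CPM at F15 (SD, n = 8) and 1.57 ± 1.2 CPM at F5 (SD, n = 10) and fell by 3.07 on the log2 scale (SE 0.63, edgeR adjusted p = 0.000434). Gr32 passed the filter through 7 libraries, all of F5 males, so it was tested only through the group in which it was high. Gr6 had 46, 25, 15 and 5 counts in F15 diploid and 27, 9, 5 and 2 in F15 haploid heads, against 73, 53, 41, 28 and 24 in F5 diploid and 65, 55, 34, 29 and 22 in F5 haploid heads. The 2 generations of Gr6 overlapped, at 0.961 ± 0.76 CPM at F15 (SD, n = 8) and 2.19 ± 0.81 CPM at F5 (SD, n = 10), with a fall of 1.25 on the log2 scale (SE 0.34, edgeR adjusted p = 0.00491). Gr2 fell by 0.84 (SE 0.24, edgeR adjusted p = 0.00837), from single libraries of 15 to 56 counts at F15 against 36 to 161 at F5. Gr25, with 0 to 14 counts at F15 against 5 to 20 at F5, fell by 1.57 (SE 0.53, edgeR adjusted p = 0.0211).

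**Figure D3:**
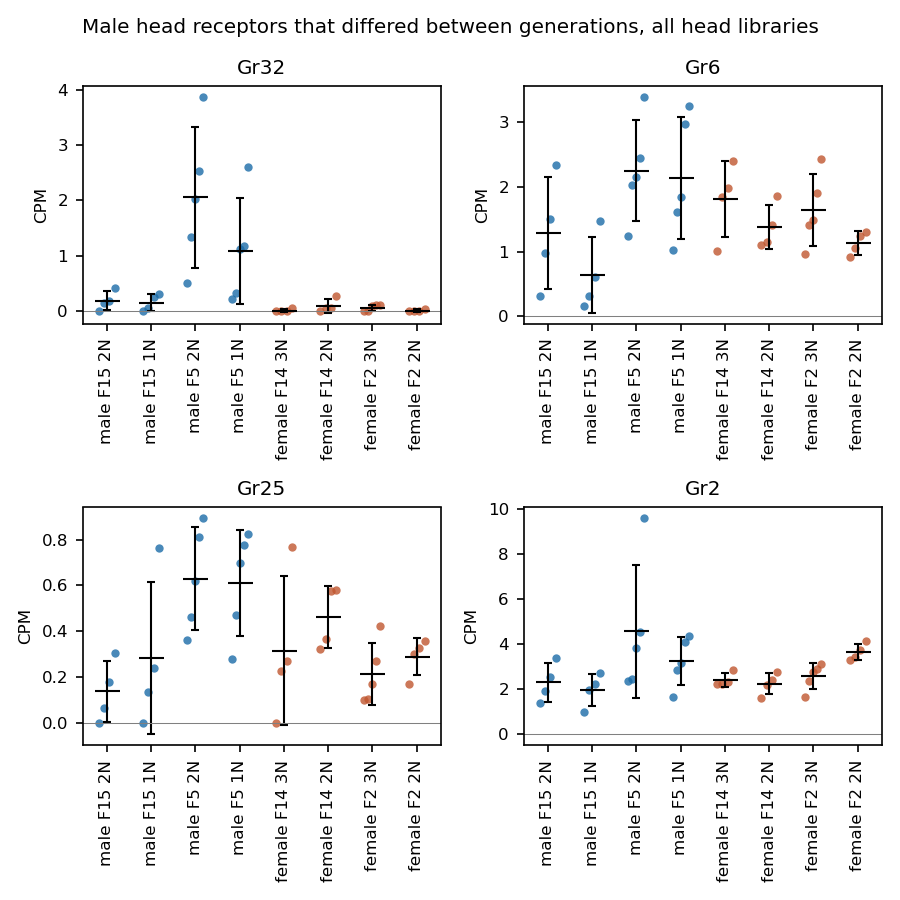
CPM of Gr32, Gr6, Gr25 and Gr2 in each head library, by group (males blue, left of females orange; black marks are the mean ± SD). Gr32 has its highest libraries in F5 males, with up to 65 counts in a library, while F15 males have at most 7.

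With the level of Or1, the odorant co-receptor of the antennae, added to the model as a covariate, Gr6 fell by 1.39 on the log2 scale (edgeR adjusted p = 0.0627) and Gr2 by 0.89 (edgeR adjusted p = 0.0953). These differences were as large as without the covariate but no longer passed the test, while that of Gr32 passed. When only these 4 groups were fitted, the differences of Gr25 (-1.55, edgeR adjusted p = 0.0504) and Gr2 (-0.83, edgeR adjusted p = 0.0608) were nearly the same size and did not pass. The summed odorant receptor level of male heads was 172 to 1225 TPM at F15 and 47.6 to 488 TPM at F5, and the summed muscle level (Tm1, Tm2 and Zasp66) was 582 to 9255 TPM at F15 and 701 to 3889 TPM at F5; their part in these results was not tested beyond the covariate.

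**Figure D4:**
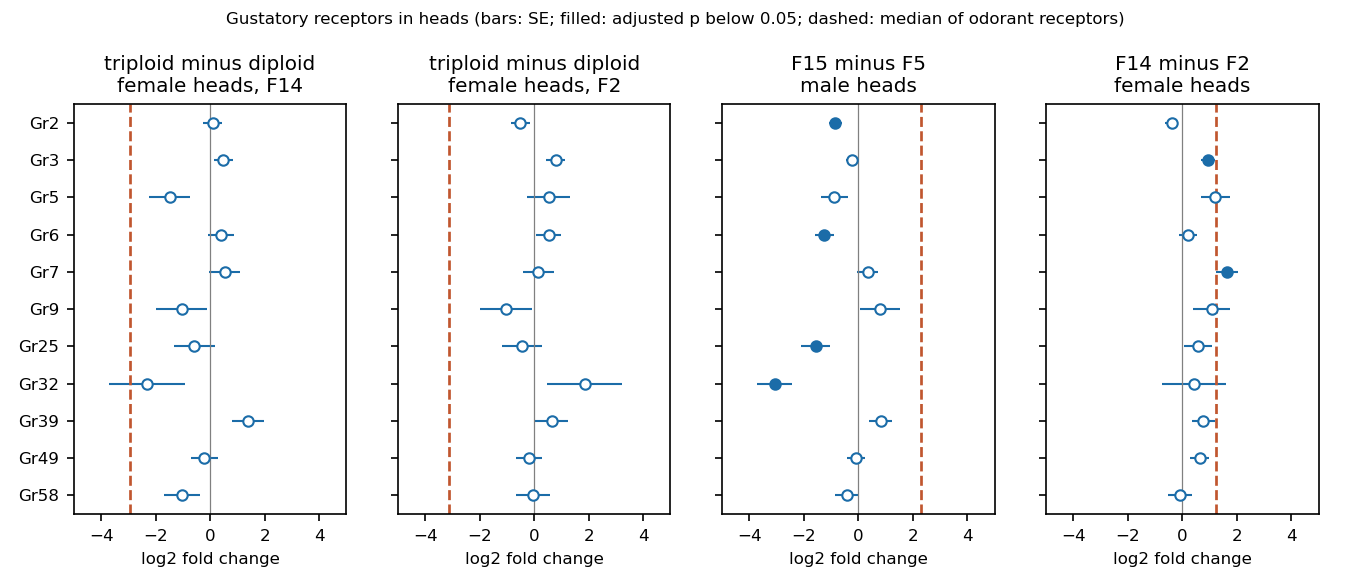
Log2 fold change (points, with bars of 1 SE) of the gustatory receptors tested in heads, for the ploidy comparisons of females at F14 and F2 and the generation comparisons of males (F15 minus F5) and females (F14 minus F2); filled points passed an edgeR adjusted p of 0.05 and the dashed line is the median of the odorant receptors. No gustatory receptor was called in either ploidy comparison, where the odorant receptor medians were -2.92 and -3.14.

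Gr32 was also the member called by edgeR between male and female heads, and only F5 males had libraries above its female range. It had 0 to 65 counts in male heads (median 7) and 0 to 7 in female heads (median 0). Against diploid females, it was higher in diploid males by 3.77 on the log2 scale (SE 0.79, edgeR adjusted p = 0.0019) and in haploid males by 3.15 (SE 0.81, edgeR adjusted p = 0.00398), with overlap between the sexes since all F15 males lay within the female range of counts. It was the 1 member of 11 called higher in each comparison, with 5.75% of all genes higher in diploid males and 17.7% in haploid males, and no female head library reached the filter's level, so Gr32 was tested because of its male counts. The odorant receptors were lower in diploid male heads in 37 of 162 tested and in haploid male heads in 117. Outside heads Gr32 was nearly absent, at 0 in 14 of 17 male abdomens and 16 of 17 female abdomens.

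Male abdomens carried more receptor transcripts than female abdomens. Of the 11 members tested in abdomens, 10 were higher in diploid males than in diploid females, with 49% of all genes tested higher there, and the same number, 10, were higher in haploid males, with 51.2% of all genes higher. Gr3 was the exception in both. Because 8 of the 11 passed the filter with fewer than 4 female libraries over its level, they could hardly be tested without being higher in males, and the count of 10 is not read as support. Gr2, Gr3 and Gr7 passed through both sexes.

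Gr2 had the highest level of these, although its log2 difference was the smallest of the 10 called in haploid males. In male abdomens it had 313, 267, 243 and 182 counts in F15 diploids, 135, 102, 100 and 72 in F15 haploids, 564, 485, 158 and 114 in F5 diploids and 336, 328, 296, 288 and 260 in F5 haploids. In female abdomens Gr2 had 185, 153, 64 and 46 counts in F14 triploids, 55, 43, 37 and 20 in F14 diploids, 35, 33, 25, 16 and 9 in F2 triploids and 82, 73, 55 and 8 in F2 diploids. The groups of both sexes overlapped at the top of the female range, where 4 of 17 female libraries had more counts than the lowest male. In CPM, the female libraries above the lowest male (C87, 4.19) were the F14 triploids C66 (10.1) and C67 (7.48). Diploid females reached at most 3.34 CPM, below every male library. Gr2 averaged 17.1 ± 6.6 CPM in diploid males (SD, n = 8), 11.5 ± 5.8 CPM in haploid males (SD, n = 9) and 1.78 ± 0.97 CPM in diploid females (SD, n = 8). Over diploid females it was higher by 3.27 on the log2 scale in diploid males (SE 0.39, edgeR adjusted p = 6.3e-09) and by 2.49 in haploid males (SE 0.37, edgeR adjusted p = 4.37e-07). Gr7, with 3 to 76 counts in male abdomens (median 33) and 0 to 17 in female abdomens (median 5), was higher by 3.03 in diploid males and by 3.27 in haploid males. Gr3, not called, had 1 to 52 counts in male abdomens (median 12) and 6 to 26 in female abdomens (median 19).

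The neighbouring genes Gr45, Gr46 and Gr47 were close to absent from female abdomens. Gr47 had 12, 4, 2 and 2 counts in F15 diploid males, 76, 40, 24 and 10 in F15 haploid males, 35, 26, 12 and 6 in F5 diploid males and 68, 56, 47, 21 and 18 in F5 haploid males. It was at 0 in 14 of 17 female abdomens, and the other 3, all F14 triploid, had 8, 1 and 1 counts. With 99 counts over the diploid males and none over the diploid females, Gr47 was at least 53.3-fold higher in diploid males, and with 360 counts at least 150.9-fold higher in haploid males, taking 3 counts over the female group as the limit that a count of 0 allows. Those limits cover counting error only.

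Gr45 had 0 to 83 counts in male abdomens (median 28) and 0 to 5 in female abdomens (median 0). Gr46 had 1 to 48 counts in male abdomens (median 15) and 0 to 10 in female abdomens (median 1). The 3 genes together had 6 to 176 counts in a male abdomen (median 71), 0 to 16 in a female abdomen (median 1) and 2 to 25 in a head (median 7). Over the 17 male abdomens Pearson's r of log2 CPM was 0.90 between Gr45 and Gr47, 0.67 between Gr46 and Gr47 and 0.59 between Gr45 and Gr46, a description of libraries from 4 groups that differ in level. Over 69 libraries their expected counts summed to whole numbers, at 553 for Gr45, 441 for Gr46 and 609 for Gr47. Sharing of reads between these neighbouring genes was not tested.

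The other members of male abdomens were lower. Gr49 had 5 to 62 counts in male abdomens (median 17) and 0 to 26 in female abdomens (median 4). Gr58 had 3 to 33 counts in male abdomens (median 16) and 0 to 4 in female abdomens (median 1). Gr5 had 0 to 26 counts in male abdomens (median 12) against 0 to 10 in females (median 2), Gr14 had 0 to 20 (median 9) against 0 to 7 (median 0) and Gr18 had 0 to 27 (median 6) against 0 to 4 (median 1). In diploid males Gr18 had 27, 13, 6 and 6 counts at F5 and 3, 1, 0 and 0 at F15. Its call there was lost without C97, the F15 library with 3 counts. The log2 difference of Gr18 was 2.04 (edgeR adjusted p = 0.00996) with all libraries and 1.33 (edgeR adjusted p = 0.21) without C97. The odorant receptors went the same way, with 35 of 50 tested higher in diploid males and 41 of 50 in haploid males. The summed muscle level was 1322 to 7130 TPM in male abdomens and 488 to 5449 TPM in female abdomens. Medians of Tm1 (1396 against 600 TPM) and Zasp66 (348 against 31.5 TPM) were higher in male abdomens, and that of Tm2 was lower (46.1 against 81.6 TPM). The ovary genes given above differed more widely. The summed serine protease level was 1532 to 8681 TPM in male abdomens (median 2910) and 743 to 15283 TPM in female abdomens (median 1009). The part of muscle, ovary and serine protease genes in these differences was not tested.

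**Figure D5:**
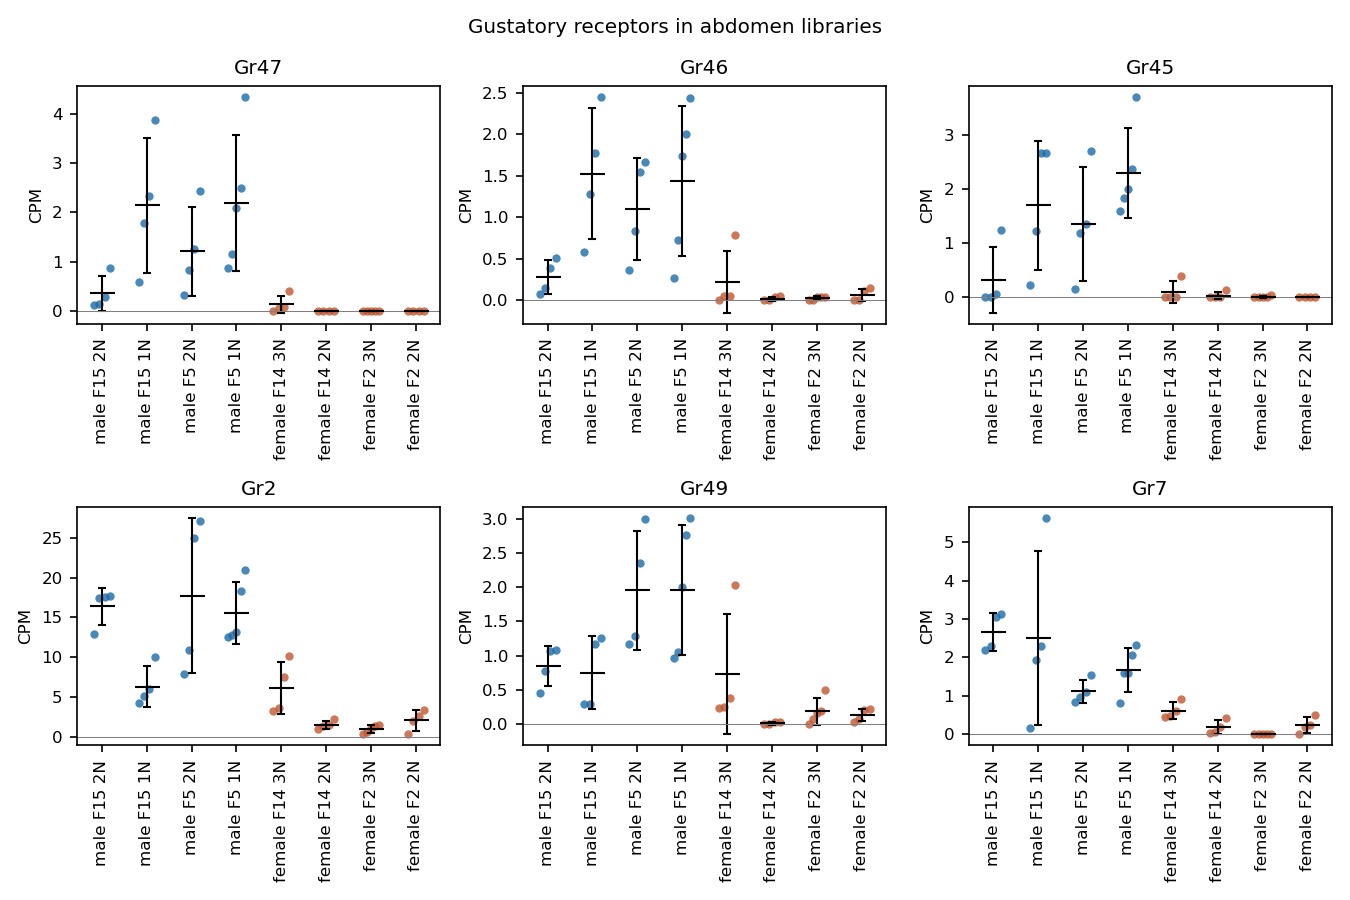
CPM of Gr47, Gr46, Gr45, Gr2, Gr49 and Gr7 in each abdomen library, by group (males left of females; black marks are the mean ± SD). Gr45, Gr46 and Gr47 lie at or near 0 in almost all female libraries, Gr2 lies highest in males, and among females the F14 triploids stand above the F14 diploids in Gr2.

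In female abdomens at F14, 3 of 11 members were higher in triploids than in diploids, a share close to the 23.1% of all genes tested that were higher. Gr2 averaged 6.11 ± 3.3 CPM in F14 triploid abdomens and 1.49 ± 0.52 CPM in F14 diploid abdomens (SD, n = 4 each), without overlap, and was higher by 2.03 on the log2 scale (SE 0.52, edgeR adjusted p = 0.00539). Gr49 had 26, 7, 5 and 5 counts in F14 triploids and 1, 1, 0 and 0 in F14 diploids, a ratio of 31.1 with a 95% counting interval of 8.09 to 265 (edgeR adjusted p = 0.0012). Gr47 had 10 counts in all, 8 of them in library C67, in F14 triploids and 0 in F14 diploids, at least 4.82-fold (edgeR adjusted p = 0.0203), and without C67 it did not pass (edgeR adjusted p = 0.132).

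The F14 triploid abdomens varied among themselves in other genes too. Their summed serine protease level was 1385 to 15283 TPM, against 907 to 1166 TPM in F14 diploid abdomens, and their summed muscle level was 721 to 5449 TPM against 673 to 799 TPM. Libraries C66 and C67, with the highest Gr2 levels (10.1 and 7.48 CPM), also had the highest serine protease levels (15283 and 10585 TPM). In C68 and C69, Gr2 was at 3.24 and 3.60 CPM and the serine proteases at 2343 and 1385 TPM. Library C69, which held the 26 counts of Gr49, had the highest summed muscle level and the lowest serine protease level of the 4. Its Tm2 level alone, at 52.7 TPM, was the lowest of the 4. The summed ovary level was 661 to 1583 TPM in F14 triploids and 1544 to 1912 TPM in F14 diploids. The part of these differences in the receptor values was not tested. When the F14 groups were fitted alone, none of the 3 calls held, since Gr47 and Gr49 did not pass the filter and Gr2, with an unchanged log2 difference of 2.03, had an edgeR adjusted p of 0.0517.

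At F2, 1 of 11 members was lower in triploid abdomens, a share close to the 11% of all genes tested that were lower. Gr7 was at 0 in all 5 F2 triploid abdomens and had 14, 6, 5 and 0 counts in F2 diploid abdomens, at least 9.55-fold lower in triploids (edgeR adjusted p = 0.0052). Gr2 at F2 had no more than 35 counts in a triploid library and up to 82 in a diploid one, and was not called. The F2 call of Gr7 did not pass in limma on log2(TPM + 0.1), where the adjusted p was 0.131.

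The ploidy effect in female abdomens was also compared between the generations, by a test of the difference itself. It was higher at F14 than at F2 for 4 of 11 members, a share near the 28.1% of all genes tested that were higher. Gr2 differed by 3.10 on the log2 scale (SE 0.71, edgeR adjusted p = 0.00125) and Gr49 by 4.43 (SE 1.28, edgeR adjusted p = 0.00792). Gr46 differed by 4.24 (SE 1.66, edgeR adjusted p = 0.0425), and Gr7 was called too (edgeR adjusted p = 0.000398). The fitted size for Gr7 depends on the prior count, since its F2 triploids were at 0. Its summed counts were 44 in F14 triploids, 20 in F14 diploids, 0 in F2 triploids and 25 in F2 diploids, so with 3 counts for the F2 triploids its ratio of triploid to diploid was at least 30.4-fold higher at F14 than at F2, and limma on log2(TPM + 1) did not call it (adjusted p = 0.243). Gr49 and Gr46 each had 2 counts in all in F14 diploids, which limits the precision of their sizes, and limma on log2(TPM + 1) called neither (adjusted p = 0.129 and 0.491). Gr46 had 10, 1, 1 and 0 counts in F14 triploid abdomens, the 10 in C69, and without C69 its difference was 1.88 (edgeR adjusted p = 0.397). The call of Gr46 was kept in 10 of 17 fits with 1 library left out. It was lost with no filter (edgeR adjusted p = 0.0504) and in limma on log2(TPM + 0.1) (adjusted p = 0.248). In heads the edgeR test of the difference between generations called 0 of 11 members (6.25% of all genes; 1 member at an unadjusted p below 0.05; DESeq2 0). Pooled over ploidy, 2 of 11 members were higher in F14 than in F2 female abdomens, with 12.5% of all genes higher: Gr2 by 1.08 (SE 0.35, edgeR adjusted p = 0.0346) and Gr7 (edgeR adjusted p = 0.0038). Gr7 averaged 0.395 ± 0.30 CPM at F14 (SD, n = 8) and 0.104 ± 0.18 CPM at F2 (SD, n = 9), with overlap, and its call was lost in limma on log2(TPM + 0.1) (difference 1.03, adjusted p = 0.0715) and on log2(TPM + 1) (difference 0.21, adjusted p = 0.46). With each of the 17 libraries left out in turn, the call of Gr2 was lost in 9 cases, with an adjusted p of up to 0.102.

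In male abdomens, ploidy gave 2 calls at F15 and none at F5. At F15 Gr2 averaged 16.4 ± 2.3 CPM in diploids and 6.31 ± 2.6 CPM in haploids (SD, n = 4 each), without overlap, and was higher by 1.38 on the log2 scale (SE 0.51, edgeR adjusted p = 0.0489; 7.44% of all genes higher). Gr47 averaged 0.35 ± 0.36 CPM in F15 diploids and 2.14 ± 1.4 CPM in F15 haploids (SD, n = 4 each), with overlap, and fell by 2.62 on the log2 scale (SE 0.92, edgeR adjusted p = 0.0458; 15% of all genes lower). Both calls are near the threshold: leaving out single libraries ended that of Gr2 in 7 of 8 cases (adjusted p up to 0.145) and that of Gr47 in 6 of 8 (up to 0.146). At F5, 0 of 11 members were called (0.317% of all genes; 1 member at an unadjusted p below 0.05; DESeq2 0), with Gr2 at 564, 485, 158 and 114 counts in F5 diploids and Gr47 at 35, 26, 12 and 6.

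The summed level of Gr45, Gr46 and Gr47 in male abdomens was 0.95 ± 0.82 CPM in F15 diploids (n = 4), 5.36 ± 2.95 in F15 haploids (n = 4), 3.65 ± 2.5 in F5 diploids (n = 4) and 5.92 ± 2.65 in F5 haploids (n = 5; SD). The F15 diploids had the lowest mean, but their libraries overlapped with those of the F15 haploids and the F5 diploids, and the summed level was not tested. The ploidy effect in male abdomens did not differ between F15 and F5 for any of the 11 members by edgeR (5.94% of all genes; 1 at an unadjusted p below 0.05; DESeq2 0), and neither did that in male heads (0.00849% of all genes; 1 unadjusted; DESeq2 0). Between F15 and F5 male abdomens 0 of 11 members were called by edgeR (20.5% of all genes; 3 unadjusted; DESeq2 2; limma 1).

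By likeness of profile, the 5 named genes nearest to Gr3 over the 16 group means of log2(TPM + 0.1) were Gr37 (Pearson's r 0.952), HisCl1 (0.939), Gr29 (0.937), Tmem59l (0.937) and Gr30 (0.935), among 828 genes searched. Gr37, Gr29 and Gr30 were undetected members, with 87, 100 and 98 counts over 69 libraries. They averaged 0.29, 0.33 and 0.29 TPM over head groups. Over abdomen groups they averaged 0.0066, 0.0081 and 0.014 TPM, below the 0.1 TPM added before the log. HisCl1 is a histamine-gated chloride channel of the visual system. For Gr2 the nearest genes were CCE-A5 (0.918), Mrjpl5 (0.902), Cht5 (0.879), Ft (0.874) and CYP6CK6 (0.871). The names of CCE-A5 and CYP6CK6 place them among the carboxylesterases and the cytochromes P450, Cht5 among the chitinases and Mrjpl5 among the major royal jelly protein-like genes. These are descriptions over group means that share tissue and sex, with no test.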

How the data were processed

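The authors deposited RSEM expected counts for 14621 genes and TPM values for 14613 in 70 poly-A libraries; the submitters' processing notes name STAR 2.7.11a and RSEM 1.3.1 as tools, with the genome build not given in the sources used here. Strand use in counting is not stated. Expected counts (18.2% of values not whole) were rounded and tested with edgeR 4.0.16 in R 4.3.3: TMM scaling, filterByExpr, 1 mean per group, quasi-likelihood F test, Benjamini-Hochberg adjustment over all genes of a contrast and a threshold of 0.05. Heads (35 libraries, 11785 genes), abdomens (34, 12291), females (34, 12114) and males (35, 12385) were fitted separately, with 11, 11, 6 and 16 members tested. Gr24, though detected, passed no filter. CPM compares libraries within a gene and TPM compares genes.

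Scripts were tested on simulated data. Alternatives were DESeq2 1.42.0, limma 3.58.1 on log2(TPM + 0.1) and log2(TPM + 1), RLE scaling, no filter, the compared groups alone, an Or1 covariate in heads, C46 kept and each library left out. Members and lists were chosen with earlier results of these data known. The named rule takes all detected members, gives library values for called members and the 5 highest, and otherwise names members at the threshold or with counts mostly in 1 group. No symbols matched ionotropic receptors, chemosensory proteins, sensory neuron membrane proteins or pickpocket channels; of 3 odorant binding proteins 2 were tested in heads, 1 of which was lower in F14 triploid than diploid heads and 0 changed at F2. Symbols and gene order came from the RefSeq table of assembly Nvit_psr_1.1, in which all 46 members were found.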

Additional observations from a re-analysis of the deposited data

Results flagged for a closer look

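Library C46, labelled as an F5 diploid male abdomen and left out above, held signal of heads. Its Lop1 level was 3337 TPM, against at most 0.28 TPM in the other 4 libraries of its group. It also had 35 counts of Gr6 and 17 of Gr32, receptors that were mainly head transcripts, against at most 14 and 0 counts in those 4 libraries.

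The ploidy effect in female abdomens differed between F14 and F2, in an edgeR test of the difference, for Gr2 (3.10 on the log2 scale), Gr7 (7.02, a fitted size), Gr46 (4.24) and Gr49 (4.43). F2 triploids were at 0 for Gr7, so that size depends on the prior count and the counts give at least 30.4-fold, and C69 held 26 of the 43 counts of Gr49 and 10 of those of Gr46 in F14 triploids.

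In 94 combinations of a member and a group, 5 libraries stood far from the rest of their group by Dixon's test at the 95% level, and chance alone marks about 1 in 20. Gr2 was highest in an F14 triploid head, C63, at 2.85 CPM (next 2.32), and lowest in an F15 diploid male abdomen, C99, at 13.0 CPM (next 17.4). Gr7 was highest in an F14 diploid head, C71, at 2.37 CPM (next 1.36), and lowest in an F2 triploid head, C35, at 0.203 CPM (next 0.686). Gr49 was highest in an F14 triploid abdomen, C69, at 2.04 CPM (next 0.382).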

How the results depend on the processing

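Of 57 calls of a member in a contrast, 36 passed under every alternative and with every library left out in turn. Another 5 passed wherever they had a value but had none under at least 1 alternative, and none of 1576 alternative values reversed its sign. In 12 cases a called member had no value, 9 of them with the groups compared alone. The number of detected members was 35 with at least 5 counts and 11 with at least 20 counts in 4 libraries. In heads, the count called was 1 at F14 between ploidies by limma on log2(TPM + 1), and 2 between haploid males and diploid females by DESeq2 and by both limma fits. For F14 against F2 female heads it was 6 with no filter, 4 with the groups compared alone and 5 and 6 by limma, and for F15 against F5 male heads 2 with the groups alone. In abdomens, the F2 ploidy comparison gave 0 calls with the groups alone and by both limma fits, and the F14 one 0 with the groups alone. The F15 ploidy comparison gave 1 with no filter or the groups alone, 0 with C46 kept and 4 by both limma fits. Males against diploid females gave 19 (haploid) and 20 (diploid) with no filter. F14 against F2 females gave 1 with C46 kept, with the groups alone and by both limma fits. F15 against F5 males gave 2 with no filter and by DESeq2, and 1 with C46 kept or the groups alone, and limma gave 1 and 2. The female interaction gave 2 with the groups alone and 1 by limma on log2(TPM + 1). Heads against abdomens gave 33 in females and 27 in males with no filter.

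Leaving out single libraries, the counts were 0 for the 4 head ploidy and 2 head interaction comparisons, 1 to 2 and 1 to 1 for haploid and diploid males against females in heads, 2 to 3 for F14 against F2 and 4 to 4 for F15 against F5 heads. In abdomens they were 1 to 3 (F2 ploidy), 3 to 5 (F14), 0 to 0 (F5) and 0 to 3 (F15), 10 to 11 in both sex comparisons, 1 to 2 and 0 to 3 between generations of females and males, and 3 to 5 and 0 to 1 for the interactions. Heads against abdomens gave 5 to 9 in females and 10 to 12 in males. Causes of these shifts were not tested. Most members had under 10 counts in most libraries, and how far depth limits them was not tested. No paired analysis was possible because the labels give library codes only, with no replicate number shared between groups.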
